A study of Mus musculus with 3 samples.

Results

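The replication-dependent histone genes were followed in single cells of the thymus of mice with germline changes at the p53 locus. They were taken as every gene whose symbol begins with Hist1 to Hist4 followed by h1, h2a, h2b, h3 or h4, without pseudogenes, which gave 67 of the 32285 genes in the deposited count tables. These are 6 genes for the linker histone H1, 18 for H2A, 18 for H2B, 12 for H3 and 13 for H4. The rule itself reads symbols only, and the family was picked with earlier results of these data known.

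The data are 3 single-cell libraries from the thymus of 4-week-old female mice, 1 library per genotype, and the labels do not say how many mice gave a library. The first library was labelled p53+/- with the background strain 50% BALB/C - 50% C57BL6. The second was labelled p53 AD/- with 50% BALB/C - 50% C57BL7, and the third p53-/- with 50% BALB/C - 50% C57BL8, as the labels spell them. The series' design text calls the first group WT, and the labels do not spell out what the AD allele is, although the series title speaks of p53 dimers. With 1 library per genotype there was no test between genotypes, and all 95% intervals below cover counting error only.

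Replication-dependent histones are made in S phase to package newly copied DNA. H2A, H2B, H3 and H4 form the core around which DNA is wrapped, and H1 binds the DNA between cores. Most of their mRNAs end in a short stem-loop that is bound by Slbp, in place of a poly(A) tail, and are degraded when replication ends, while some members can also make polyadenylated mRNA from a signal further downstream. In the thymus, precursors divide rapidly before and at entry into the CD4+ CD8+ double-positive (DP) stage, then leave the cycle, rearrange the T cell receptor alpha locus with Rag1 and Rag2, and are selected into CD4+ or CD8+ single-positive (SP) cells.

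The members lie in a few groups in the mouse genome (GRCm38 coordinates, GENCODE M21 gene models). The Hist1 cluster on chromosome 13 holds 54 members, 23 of them between 21715763 and 22043676 and 31 between 23531050 and 23934851. Hist2 on chromosome 3 holds 10 (96219865 to 96270132), Hist3 on chromosome 11 holds 2 (58948920 to 58956830) and Hist4 on chromosome 6 holds 1 (136801553 to 136804415). The 16-base stem-loop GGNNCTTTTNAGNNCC was searched on the transcribed strand of the gene models. It was found in 44 of the 67 members and in 28 of the other 21834 protein-coding genes (0.128%). Of those 44 members, 16 had a poly(A) hexamer (AATAAA or ATTAAA) in the gene model after the stem-loop and 28 had none. The other 23 members had no match in their model, which says only that these letters are not in the annotated transcript. The most frequent form, in 26 members, was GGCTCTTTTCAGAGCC. The sequences below show the stem-loop in capitals with its flanks, for the members that the results turn on. The coordinates are those of the stem-loop.
Hist1h2ap, chr13:21833029-21833044, minus strand: aaaaaaaGGCTCTTTTCAGAGCCatc
Hist1h3c, chr13:23745047-23745062, minus strand: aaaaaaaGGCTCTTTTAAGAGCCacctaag
Hist1h3b, chr13:23752820-23752835, plus strand: acccaaaGGCTCTTTTCAGAGCCacccaca
Hist1h1e, chr13:23621782-23621797, minus strand: acccaaaGGCTCTTTTCAGAGCCacccaca
Hist1h4d, chr13:23581950-23581965, plus strand: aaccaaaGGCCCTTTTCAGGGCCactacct
Hist3h2ba, chr11:58949349-58949364, plus strand: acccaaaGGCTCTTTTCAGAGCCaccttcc
Hist3h2a, chr11:58955172-58955187, plus strand: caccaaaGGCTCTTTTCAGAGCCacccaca
The first 4 have no hexamer after the stem-loop, and the other 3 do. Hist1h1e, Hist3h2ba and Hist3h2a shared the 16 bases of Hist1h2ap and Hist1h3b, and their models ran on for another 1153, 169 and 1643 bases after it.

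Promoters were available from RefSeq (GRCm38.p6, 250 bases before to 50 after the start) for 61 of the 67 members. The pentamer CCAAT, on either strand, was in every promoter matched for H1 (5), H2A (18), H2B (16) and H3 (10), but in 3 of 12 for H4, against 37.4% of all 32851 promoters. TATAAA was in 34 of 61 (55.7%) against 13.6% of all, and the octamer ATTTGCAT was in 7 H2A and 6 H2B promoters and in none of the other types, against 1.73% of all. A match of letters is a description of the window and no evidence of binding. The promoters of 3 members with different patterns in these cells are printed with those motifs in capitals, on either strand. Hist1h2ap had the highest ratio of p53 AD/- over p53-/-, Hist1h3c was far higher in cycling than in quiescent DP cells, and Hist3h2ba was lower in the cycling class than in the quiescent DP class.
Hist1h2ap, chr13:21833426-21833725, minus strand: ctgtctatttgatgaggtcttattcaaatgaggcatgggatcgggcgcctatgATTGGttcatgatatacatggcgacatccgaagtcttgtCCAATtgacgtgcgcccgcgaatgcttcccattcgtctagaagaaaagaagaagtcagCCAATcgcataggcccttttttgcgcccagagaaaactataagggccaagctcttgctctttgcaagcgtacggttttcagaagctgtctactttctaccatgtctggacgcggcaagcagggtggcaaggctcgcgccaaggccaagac
Hist1h3c, chr13:23745472-23745771, minus strand: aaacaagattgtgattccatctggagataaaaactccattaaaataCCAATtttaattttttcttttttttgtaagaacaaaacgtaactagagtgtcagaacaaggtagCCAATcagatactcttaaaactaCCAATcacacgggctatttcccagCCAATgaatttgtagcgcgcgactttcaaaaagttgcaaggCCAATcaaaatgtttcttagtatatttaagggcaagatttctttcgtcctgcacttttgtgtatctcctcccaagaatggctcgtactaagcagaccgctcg
Hist3h2ba, chr11:58948661-58948960, plus strand: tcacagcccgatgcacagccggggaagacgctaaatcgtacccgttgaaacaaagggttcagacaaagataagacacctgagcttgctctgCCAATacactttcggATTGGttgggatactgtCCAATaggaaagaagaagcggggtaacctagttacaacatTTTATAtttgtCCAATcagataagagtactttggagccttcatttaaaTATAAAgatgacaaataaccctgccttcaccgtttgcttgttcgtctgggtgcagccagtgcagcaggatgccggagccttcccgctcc

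After filtering (at least 500 genes and under 10% mitochondrial unique molecular identifiers, UMIs) the libraries held 8150, 6171 and 9543 cells, with medians of 3238.5, 2484 and 3062 UMIs; these and all later triplets are in the order p53+/-, p53 AD/-, p53-/-. Trp53 itself gave 86.1, 90.9 and 74.9 CPM (UMIs of a gene per 1000000 UMIs), so the p53-/- library still had Trp53 transcript. No source used here gives the deleted part of the gene, so these counts do not check the labels. Between 15 and 29 barcodes were shared by each pair of libraries. A doublet caller (Scrublet) marked 0, 1 and 0 barcodes and so did not work here. Cells were clustered without the histone members, and the clusters were named from markers: double-negative (DN), cycling, quiescent DP, selected DP or early SP, mature SP, and antigen-presenting or myeloid cells. The quiescent DP clusters had Rag1, Cd8b1 and Arpp21 or Cd8a among their leading genes, and the mature SP clusters H2-D1 and Ifi27l2a. Of the cycling clusters, cluster 4 (2330 cells) had Top2a and Mki67, and cluster 5 (1337 cells) had Dut as its only cycling marker there. Cluster 13 (37, 54 and 84 cells), with both cycling and mature SP genes among its leading genes, stayed unnamed.

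The family gave 1728445 UMIs, and these were concentrated in few genes. UMIs were not scaled by gene length, so their split among members is a split of counted molecules. Hist1h2ap, an H2A gene (ENSMUSG00000094777, chromosome 13, 21833026 to 21833507), gave 560673 UMIs, or 32.4% of the family. The linker histone gene Hist1h1b gave 11.7%, Hist1h4d (H4) 9.69%, Hist1h1e (H1) 7.20% and Hist1h2ae (H2A) 6.78%. These 5 members together gave 67.8%, and the leading 12, which also include Hist1h4h, Hist1h1c, Hist1h1d, Hist1h3c, Hist2h2ac, Hist1h2ab and Hist1h1a, gave 83.6%. Of the 67 members, 60 had at least 100 UMIs, 5 had 1 to 99 (Hist1h2ao, Hist2h3c2, Hist1h1t, Hist2h2aa2 and Hist1h2bq), and Hist1h2ba and Hist1h2aa had 0. Members are near-identical in places: 93.1% of the 50-base stretches of Hist1h2ap also occur in other genes, with Hist1h2ao the closest, so the split of UMIs between such copies is uncertain. Adding the 96 UMIs of Hist1h2ao to Hist1h2ap left the ratios between libraries at 2.85 in quiescent DP and 2.98 in cycling cells (log2, p53 AD/- over p53-/-). A count that low could hardly move the ratios, so the sum does not test how UMIs were split between the copies.

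Cycling cells held the most histone RNA of the named classes. In the p53+/- library the family took 29547 CPM of cycling cells (95% interval 29467 to 29627, 1108 cells), in p53 AD/- 45558 CPM (45429 to 45688, 797 cells) and in p53-/- 15902 CPM (15852 to 15951, 1762 cells). Thus 2.95, 4.56 and 1.59% of all UMIs of these cells were histone UMIs. In quiescent DP cells the levels were 5905 (5864 to 5946, 4624 cells), 7889 (7826 to 7953, 3483 cells) and 3201 CPM (3169 to 3234, 4695 cells). Selected DP or early SP cells had 2524, 3137 and 1476 CPM, mature SP cells 1341, 1585 and 880.4 CPM, and the few DN cells (81, 32 and 114) had 2645, 3407 and 1416 CPM. The same order of libraries was seen in each of these 5 classes, with p53 AD/- highest, p53-/- lowest and no overlap of the counting intervals. In antigen-presenting or myeloid cells (2387, 2532 and 1900 CPM) and in cluster 13 (34083, 34720 and 15175 CPM) the intervals of p53+/- and p53 AD/- overlapped.

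**Figure D1:**
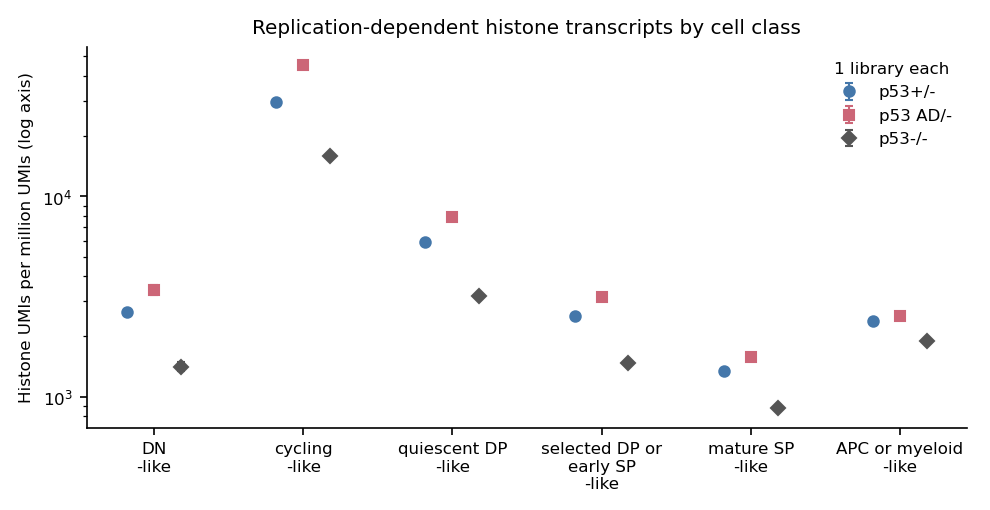
Summed level of the 67 replication-dependent histone genes (CPM, log axis) by cell class in each of the 3 libraries; bars on the points are exact 95% Poisson intervals for counting error, with 1 library per genotype. Cycling cells (29547, 45558 and 15902 CPM) stand above quiescent DP (5905, 7889 and 3201 CPM) and mature SP cells (1341, 1585 and 880.4 CPM), and p53 AD/- is above p53-/- in each class.

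A cell of the quiescent DP class held a median of 14, 14 and 7 histone UMIs of a median of 2724, 1988 and 2270 UMIs, and a cycling cell held 446, 584 and 193 of 12670, 10474 and 10998. At least 1 histone UMI was seen in 99.9, 99.7 and 98.2% of quiescent DP cells and in 98.9, 97.6 and 95.3% of mature SP cells, which were deeper (medians of 7187, 5563 and 6143 UMIs). With each cell thinned to 1500 UMIs, which left out 146, 563 and 345 quiescent DP cells and 4, 2 and 4 mature SP cells, the shares were 99.4, 99.5 and 96.9% against 74.2, 80.5 and 67.0%. Free RNA from lysed cells can give such UMIs, and its part in these shares was not tested. By cycle genes, mature SP cells were not the lower class. A list of 20 S phase genes summed to 774.6, 696.2 and 781.4 CPM there and to 517.4, 505.1 and 592.7 CPM in quiescent DP cells. A list of 20 G2/M genes summed to 239.5, 150.5 and 260.2 CPM against 193.9, 156.1 and 260.8 CPM, lower in mature SP by little in p53 AD/- and p53-/-.

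Within each library, nearly all members with enough UMIs were higher in cycling than in quiescent DP cells. Among members with at least 100 UMIs over the 2 classes, 49 of 57 in p53+/- were 2-fold or more higher in cycling cells (11.5% of all genes tested were that much higher and 26% that much lower), 50 of 56 in p53 AD/- (10.6 and 27.7% of all genes) and 51 of 57 in p53-/- (11.8 and 26% of all genes). The members that were 2-fold or more lower numbered 1, 2 and 2. The median log2 ratio was 2.45, 2.77 and 2.63 for members and -0.42, -0.48 and -0.42 for all genes. A member could pass the minimum through cycling cells alone, so these counts describe the members measured.

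The members differed widely in how far they followed the cycle. The H3 genes Hist1h3c and Hist1h3b were far higher in cycling cells, with log2 ratios over quiescent DP of 5.36, 7.13 and 6.28 for Hist1h3c and 5.24, 7.61 and 6.13 for Hist1h3b. The 2 leading core histone genes had middle values, 2.67, 3.0 and 2.86 for Hist1h2ap and 2.52, 2.64 and 2.70 for Hist1h4d. Linker histone genes were split: Hist1h1b stood at 3.12, 3.33 and 3.27, whereas Hist1h1e stood at 1.23, 1.06 and 1.45, Hist1h1d at 0.86, 0.97 and 0.87, and Hist1h1c, which is known to be expressed outside S phase as well, at 0.60, 0.69 and 0.38. At the other end, both Hist3 members were lower in cycling cells: Hist3h2ba at -0.95, -1.05 and -1.14 and Hist3h2a at -1.86, -2.20 and -1.78. Hist2h2be (-0.36, -0.47 and -0.32) and Hist4h4 (-0.03, 0.08 and -0.22), named after their values were seen, lay near 0.

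Hist3h2ba, an H2B gene, had 101.3, 126.8 and 105.8 CPM in cycling cells, 195.3, 262.6 and 232.4 in quiescent DP cells and 21.1, 32.5 and 31.5 in mature SP cells. Hist3h2a, its H2A neighbour, had 24.4, 23.3 and 24.9, then 88.6, 106.7 and 85.4, then 10.9, 14.9 and 15.6 CPM. Among these 3 classes, both had their highest summed level in quiescent DP cells in each of the 3 libraries; in p53+/- and p53-/- the cycling cells with the lowest S share, described below, were higher still for Hist3h2ba.

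This spread went in part with the end of the gene model, with the lowest medians in members that had a hexamer after the stem-loop. The 28 members with a stem-loop and no hexamer after it had a median log2 ratio of cycling over quiescent DP of 2.62, 2.98 and 2.87 (24, 23 and 24 tested). All those tested were 2-fold or more higher, where 11.5, 10.6 and 11.8% of all genes were. The members tested could pass the minimum through cycling cells alone. The 16 members with a hexamer after the stem-loop had medians of 1.0, 1.25 and 1.21 (14, 14 and 15 tested), and their values ran from -1.86 to 3.6 in p53+/-. The 23 members without a stem-loop match had medians of 2.48, 2.78 and 2.63 (19, 19 and 18 tested). The gene models of these 3 sets also differ in length, with medians of 526, 1595 and 411 bases. No source used here says how the libraries were primed, and its part in these differences was not tested.

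**Figure D2:**
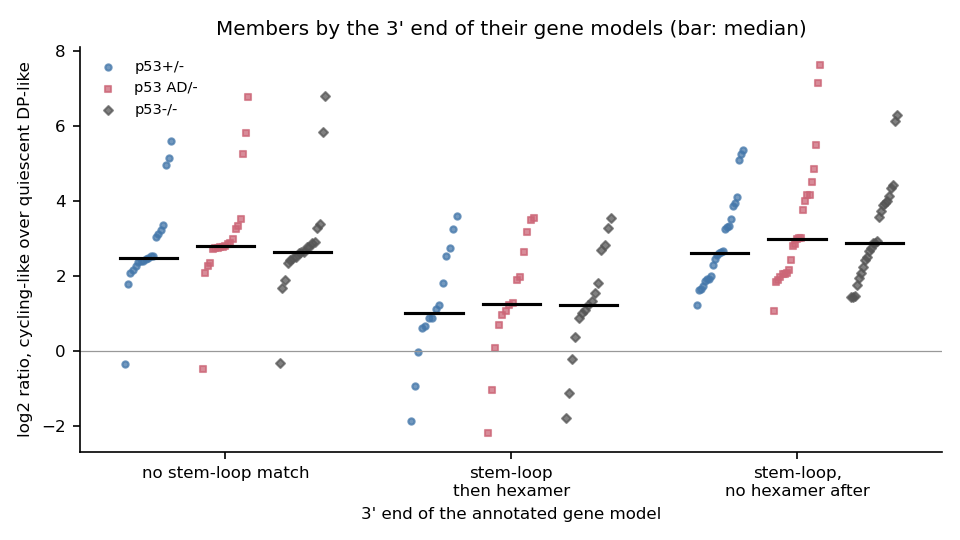
Log2 ratio of CPM in cycling over quiescent DP cells for each member (points), by the annotated 3′ end of its gene model and by library, with the median as a bar. Members with a stem-loop and no hexamer after it have medians of 2.62, 2.98 and 2.87, and those with a hexamer after the stem-loop 1.0, 1.25 and 1.21, including the Hist3 members below 0.

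Outside the cycling class, the summed level of the family fell along maturation while cell depth rose. Median UMIs per cell were 2724, 1988 and 2270 in quiescent DP and 7187, 5563 and 6143 in mature SP cells. A list of 6 erythroid genes also fell, from 420.1, 13.3 and 101 CPM to 10.4, 3.14 and 6.15 CPM. The part of depth and of free RNA in the fall of the family was not tested. From quiescent DP to mature SP cells, all 46, 36 and 35 members tested in the 3 libraries were lower in mature SP cells, 44, 36 and 31 of them by 2-fold or more (17, 19.1 and 16.4% of all genes were that much higher in quiescent DP and 7.5, 6.13 and 7.8% that much lower). The median log2 ratio of quiescent DP over mature SP was 2.08, 2.14 and 1.78, against 0.38, 0.43 and 0.38 for all genes. Selected DP or early SP cells lay between: 30 of 46, 24 of 38 and 20 of 34 members were 2-fold or more higher in quiescent DP than in this class (6.87, 7.31 and 7.02% of all genes), and 0 members were as far lower (4.94, 4.73 and 5.44% of all genes). In both comparisons a member could pass the minimum through quiescent DP cells alone, so these counts describe the members measured.

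Few quiescent DP cells held a UMI of Hist1h3c. It was counted in 4.59, 1.15 and 1.47% of quiescent DP cells and in 7.42, 1.46 and 3.15% of mature SP cells. Thinned to 1500 UMIs, the shares were 2.55, 0.514 and 1.08% against 2.06, 0 (0 of 410 cells, exact 95% upper limit 0.896%) and 0.760%, with overlapping intervals in each library. In cycling cells it was counted in 82.2, 75.2 and 76.4%, and in 52.1, 46.9 and 41.1% once thinned. Hist1h2ap, in contrast, had a UMI in 75.1, 82.5 and 34.3% of thinned quiescent DP cells (unthinned 85.2, 85.6 and 46.0%) and in 23.9, 30.5 and 8.87% of thinned mature SP cells (unthinned 59.0, 59.0 and 27%).

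Along the cycle, histone RNA was lowest in cells whose cycle transcripts were mostly of S genes. Cycling cells were binned by the share of S genes in their S and G2/M list UMIs (1091, 786 and 1750 cells could be binned, of which 189, 117 and 318 lay within 0.02 of a bin edge). The bins order cells by these lists only. They were not checked against DNA content, so a high S share does not show that a cell was in S phase, nor a low one that it was not. Histone RNA was 35068, 52701 and 19864 CPM at an S share of 0 to 0.2 and 11144, 19423 and 5622 CPM at 0.8 to 1. The median share of histone UMIs per cell was 3.37, 5.65 and 1.94% in the first of these bins, and it was higher in a bin nearer the middle, at 3.92% (0.2 to 0.4) in p53+/-, 6.39% (0.4 to 0.6) in p53 AD/- and 1.97% (0.2 to 0.4) in p53-/-. Members were not alike in this. Hist1h1b was highest in the middle bin (0.4 to 0.6) at 4403, 5066 and 3660 CPM, as was Hist1h1a at 618.4, 753.4 and 488.9 CPM. Hist1h1c, Hist1h4h and Hist3h2ba were highest at 0 to 0.2, with 917.9, 1129 and 669.4 CPM for Hist1h1c, 1573, 2052 and 969.1 for Hist1h4h, and 234.8, 261.9 and 246.9 for Hist3h2ba, which had 29.3, 48.0 and 30.5 CPM at 0.8 to 1.

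**Figure D3:**
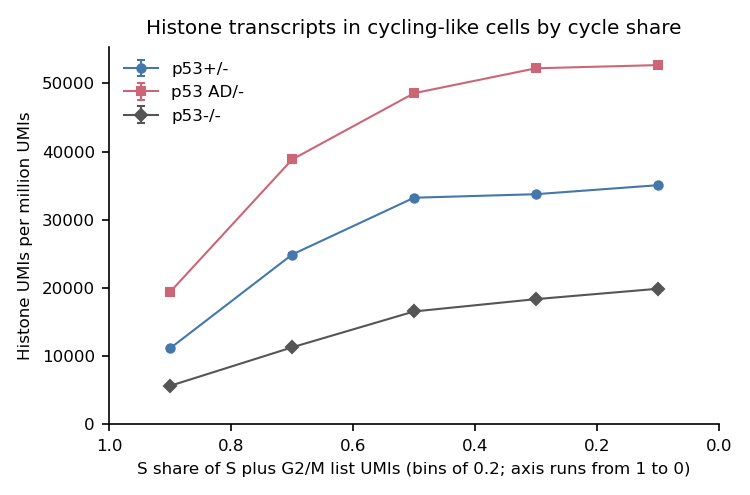
Histone CPM in cycling cells by the S share of their S plus G2/M list UMIs (bins of 0.2) in the 3 libraries, with exact 95% Poisson intervals. The level runs from 35068, 52701 and 19864 CPM at 0 to 0.2 to 11144, 19423 and 5622 CPM at 0.8 to 1, and the order of the libraries is the same in every bin.

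The order of the libraries held in every bin of the cycle. The log2 ratio of p53 AD/- over p53-/- was 1.41, 1.51, 1.55, 1.79 and 1.79 from the lowest to the highest S share, that of p53 AD/- over p53+/- lay between 0.55 and 0.80, and that of p53-/- over p53+/- between -1.14 and -0.82. The summed S list in cycling cells, at 4550, 4383 and 4857 CPM, and the G2/M list, at 7815, 8558 and 9151 CPM, did not follow that order. The 2 cycling clusters each showed it as well: cluster 4 had 36868, 57077 and 19653 CPM and cluster 5 had 17341, 21596 and 7939 CPM.

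In quiescent DP cells the family was 2.46-fold higher in the p53 AD/- than in the p53-/- library, a log2 ratio of 1.30 (1.28 to 1.32). It was 1.34-fold higher in p53 AD/- than in p53+/- (log2 0.42, 0.40 to 0.43), and p53-/- had 0.542 of the p53+/- level (log2 -0.88, -0.90 to -0.87). In cycling cells the same 3 log2 ratios were 1.52 (1.51 to 1.52), 0.62 and -0.89. These pairs share libraries and are not independent of each other. They carry no measure of how far 2 samples of 1 genotype differ, and genotype, strain label and library cannot be told apart.

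Malat1, a long non-coding RNA of the nucleus, had a median share in quiescent DP cells of 6.08, 3.81 and 7.41%, the reverse of the histone order. Among cells matched on that share (2130 per library) the log2 ratios were 1.18, 0.40 and -0.78. The clusters that make up the class also differed: cluster 0 held 51.2% of the p53 AD/- cells of this class and 9.84 and 6.45% of the others, and cluster 1 held 13.1% against 49.5 and 57.3%. Within cluster 1, where median Malat1 shares were 6.53, 6.84 and 7.65%, the histone level was 5686, 7876 and 3097 CPM, and within cluster 0 it was 5467, 7811 and 2868 CPM. The summed S list (517.4, 505.1 and 592.7 CPM) and G2/M list (193.9, 156.1 and 260.8 CPM) of quiescent DP cells were lowest in p53 AD/- and highest in p53-/-, the reverse of the histone order. Of the 6 erythroid genes, summed at 420.1, 13.3 and 101 CPM in these cells, and of the 6 granulocyte genes, at 33.5, 4.63 and 43.4 CPM with Ngp at 0 in p53 AD/-, both lists were lowest in p53 AD/-, and their part in the result was not tested.

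By type, H2A stood apart from the other histones. In quiescent DP cells H2A had 2428, 3347 and 754.3 CPM, a log2 ratio of p53 AD/- over p53-/- of 2.15, while H1 had 1856, 2647 and 1249 CPM (1.08). H2B had 554.2, 598.0 and 437.7 CPM (0.45), H3 had 246.5, 238.8 and 139.8 CPM (0.77) and H4 had 820.8, 1059 and 620.1 CPM (0.77). In cycling cells H2A had 14886, 26163 and 4858 CPM (2.43), H1 6611, 8894 and 5157 CPM (0.79), H2B 2025, 2489 and 1388 CPM (0.84), H3 2166, 2610 and 1238 CPM (1.08) and H4 3859, 5402 and 3261 CPM (0.73). Each type was thus lowest in p53-/- in both classes, and highest in p53 AD/- except for H3 in quiescent DP cells. The H2A ratio rested mostly on Hist1h2ap: without it, H2A stood at 1.0 in quiescent DP and 1.35 in cycling cells, and the whole family at 0.91 and 0.92.

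**Figure D4:**
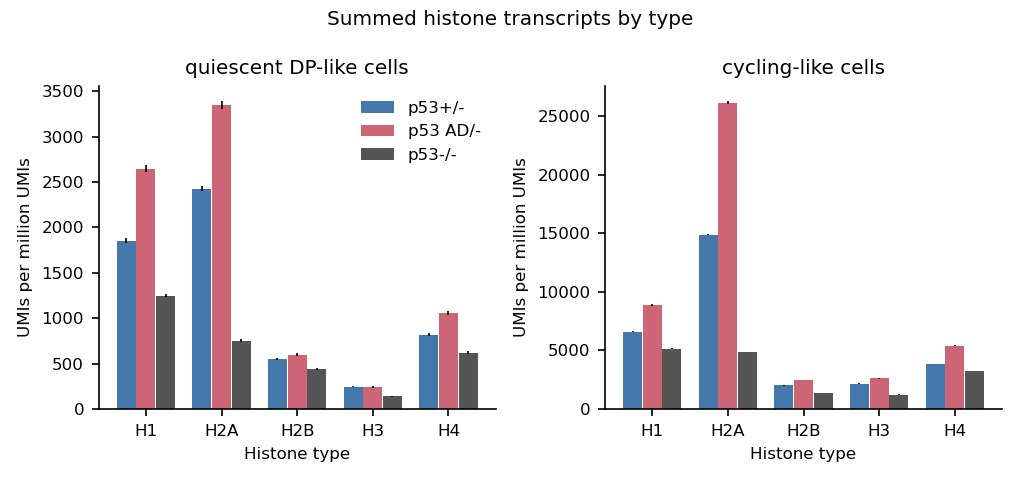
CPM of the H1, H2A, H2B, H3 and H4 members in quiescent DP and cycling cells of the 3 libraries (linear axes), with exact 95% Poisson intervals. H2A shows the widest gap between libraries, 754.3 to 3347 CPM in quiescent DP and 4858 to 26163 CPM in cycling cells.

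By position, the ratio of p53 AD/- over p53-/- was above 0 in each gene cluster. In quiescent DP cells the log2 values were 1.99 for the Hist1 members at 21715763 to 22043676, which include Hist1h2ap, 1.08 for those at 23531050 to 23934851, 0.76 for Hist2, 0.22 for Hist3 and 0.89 for Hist4. In cycling cells they were 2.01, 1.07, 0.76, 0.20 and 1.18.

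Hist1h2ap had the highest ratio of p53 AD/- over p53-/- of the members tested in both classes. It had 1669, 2543 and 353.4 CPM in quiescent DP cells (22518, 19241 and 4115 UMIs) and 10641, 20343 and 2570 CPM in cycling cells (189226, 213418 and 63728 UMIs), and in mature SP cells it had 272.4, 349.7 and 63.1 CPM. The p53-/- library was far below the other two in all 3 classes. The log2 ratio of p53 AD/- over p53-/- was 2.85 (2.80 to 2.90) in quiescent DP and 2.98 (2.97 to 3.0) in cycling cells, and that of p53-/- over p53+/- was -2.24 (-2.29 to -2.19) and -2.05. Its share of family UMIs was 28.3, 32.2 and 11.0% in quiescent DP and 36.0, 44.7 and 16.2% in cycling cells.

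Across members in quiescent DP cells, 18 of the 47 with at least 100 UMIs over the pair were 2-fold or more higher in p53 AD/- than in p53-/-, where 0.773% of all genes were, and 0 were as far lower (4.97% of all genes). These 18 were among 69 genes in all with such a ratio. In total 43 of the 47 were above 0, with a median of 0.86 against -0.11 for all 8927 genes tested. For p53-/- over p53+/-, 14 of 47 were 2-fold or more lower (0.467% of all genes), 0 were as far higher (0.817% of all genes), 46 were below 0 and the median was -0.72 against 0.09. For p53 AD/- over p53+/-, 0 of 48 were 2-fold or more higher (0.421% of all genes), 2 were as far lower (2.32% of all genes), 28 were above 0 and the median was 0.10 against -0.02. Members that passed the minimum only through their higher library had to differ, so these counts do not cover the 67. With the cells matched on Malat1, 11 of 36 members were 2-fold or more higher in p53 AD/- than in p53-/- (0.637% of all genes in the matched cells) and 0 as far lower (2.56%). For p53-/- over p53+/-, 9 of 38 were as far lower (0.299%) and 0 higher (0.561%), and for p53 AD/- over p53+/-, 0 of 39 were higher (0.27%) and 1 was lower (1.11%).

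In cycling cells, 25 of 58 members were 2-fold or more higher in p53 AD/- than in p53-/- (0.635% of all genes) and 1 was as far lower (5.85% of all genes), with a median of 0.85 against -0.20. For p53-/- over p53+/-, 8 of 58 were 2-fold or more lower (0.327% of all genes), 0 were as far higher (0.46% of all genes) and the median was -0.48 against 0.08. For p53 AD/- over p53+/-, 2 of 58 were 2-fold or more higher (0.434% of all genes) and 1 as far lower (2.56% of all genes), with a median of 0.37 against -0.11. Member ratios in the 2 classes ran together across members measured in both. For p53 AD/- over p53-/- Pearson's r was 0.90 and Spearman's rho 0.89 (47 members), and for p53-/- over p53+/- they were 0.88 and 0.87 (47 members). For p53 AD/- over p53+/- they were 0.57 and 0.68 (48 members). Both classes come from the same libraries, so this is a description.

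**Figure D5:**
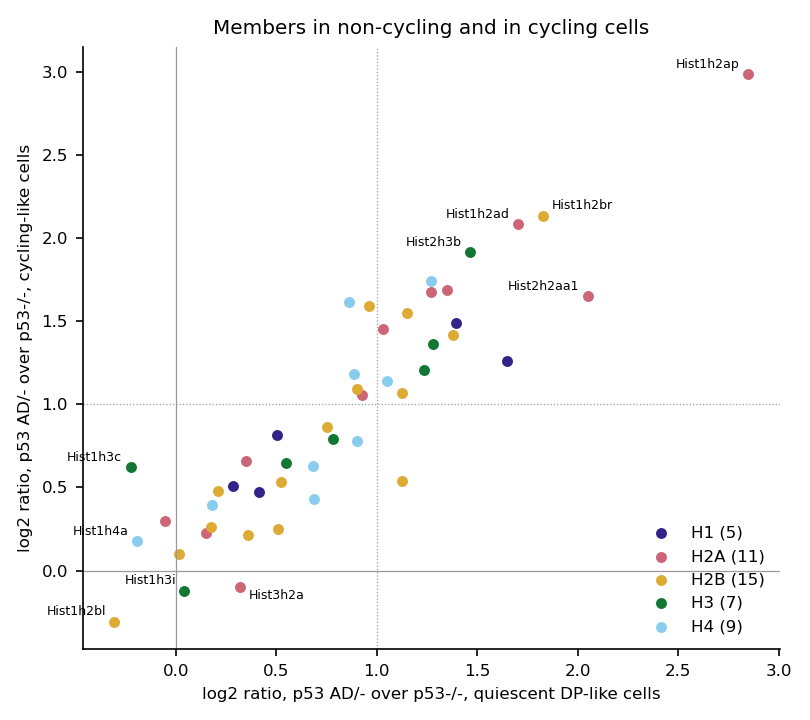
Log2 ratio of CPM of p53 AD/- over p53-/- for each member with enough UMIs, in quiescent DP (x axis) against cycling cells (y axis). Hist1h2ap lies at 2.85 and 2.98, and most members lie above 0 in both classes.

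Linker histone genes were not alike. Hist1h1e, a main somatic H1 gene, had 713.1, 1278 and 407.7 CPM in quiescent DP cells, a log2 ratio of p53 AD/- over p53-/- of 1.65, and 1678, 2672 and 1113 CPM in cycling cells (1.26). Hist1h1d followed the same order with 313.8, 469.4 and 178.4 CPM (1.40) and 571.0, 916.8 and 326.0 CPM (1.49). The other 3 differed less: Hist1h1b had 386.5, 404.8 and 304.5 CPM in quiescent DP cells (0.41), Hist1h1c 355.2, 409.2 and 288.9 CPM (0.50) and Hist1h1a 86.8, 85.1 and 69.8 CPM (0.29). Hist1h1t, the testis H1 gene, had 52 UMIs in all cells together. Of the 50-base stretches of Hist1h1e, 32% also occur in other genes, with Hist1h2be the closest. The split of UMIs between these 2 members is thus uncertain.

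Among H2A genes, Hist1h2ae had 342.1, 359.1 and 140.7 CPM in quiescent DP and 2305, 3223 and 1001 CPM in cycling cells (log2 p53 AD/- over p53-/- 1.35 and 1.69). Hist2h2aa1 had 57.1, 98.5 and 23.8 CPM in quiescent DP cells (2.05), and 89.4% of its 50-base stretches also occur in a gene that was not taken as a member. Hist1h2ab had 35.9, 29.9 and 14.6 CPM there and 546.7, 862.3 and 314.9 CPM in cycling cells (1.03 and 1.45). In these 3 genes the p53-/- library was lowest in quiescent DP cells, with p53+/- and p53 AD/- closer to each other for Hist1h2ae and Hist1h2ab. Hist2h2ac differed little in quiescent DP cells (89.2, 82.9 and 65.2 CPM, log2 0.35). Hist1h2ad had 70.7, 83.3 and 19.6 CPM in cycling cells, a log2 ratio of p53-/- over p53+/- of -1.85. Hist1h2af ran the other way, with 92.4, 43.0 and 104.9 CPM in cycling cells: it was the member with the lowest ratio of p53 AD/- over p53-/- (-1.29) and over p53+/- (-1.10). However, 79.7% of the 50-base stretches of Hist1h2af also occur in Hist1h2ad, so the split of UMIs between these copies is uncertain. The low members Hist1h2ah (7.82, 15.1 and 3.95 CPM in cycling cells) and Hist1h2an (9.78, 5.82 and 5.24 CPM in quiescent DP cells) rested on few UMIs. Of their 50-base stretches, 90.7 and 85.8% also occur in other genes.

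Among H2B genes, Hist1h2br had 42.3, 42.4 and 11.9 CPM in quiescent DP cells, so that p53+/- and p53 AD/- differed by less than counting error (log2 0.00, -0.20 to 0.20), while p53 AD/- over p53-/- was 1.83. In cycling cells it had 218.1, 291.2 and 66.3 CPM (2.13). Of the 50-base stretches of Hist1h2br and Hist1h2bl, 88.7 and 82.8% also occur in other genes, so their split of UMIs is uncertain. Hist1h2br lies next to Hist1h2ap on the opposite strand, and the promoter windows of the 2 genes overlap (chr13:21833426-21833725 and chr13:21833493-21833792). Hist1h2bl was slightly lower in p53 AD/-, with 8.60, 5.55 and 6.87 CPM in quiescent DP and 48.0, 37.8 and 46.7 CPM in cycling cells (log2 over p53-/- -0.31 in both). Hist3h2ba, described above, had a log2 ratio of p53 AD/- over p53-/- of 0.18 in quiescent DP cells, and its level in p53-/- was above that in p53+/- (0.25); its neighbour Hist3h2a stood at 0.32 and -0.05.

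Of the H3 genes, Hist1h3c had 840.2, 738.6 and 480.2 CPM in cycling cells, highest in p53+/-, with a log2 ratio of p53 AD/- over p53+/- of -0.19 and over p53-/- of 0.62. In quiescent DP cells it had 20.5, 5.29 and 6.18 CPM (277, 40 and 72 UMIs), which gave -1.96 for p53 AD/- over p53+/-; its share of cells there is given above beside that of mature SP cells. Hist1h3b had 394.5, 643.6 and 108.5 CPM in cycling cells (2.57 for p53 AD/- over p53-/-), and 10.5, 3.3 and 1.55 CPM in quiescent DP cells (141, 25 and 18 UMIs). Hist2h3b had 36.2, 80.2 and 21.2 CPM in cycling cells (1.92). Hist1h3i had 97.6, 68.6 and 74.6 CPM there (-0.12), and Hist2h3c1 had 3.54, 4.57 and 3.99 CPM. Of the 50-base stretches of Hist2h3b and Hist2h3c1, 79.7 and 100% also occur in a gene that was not taken as a member. For Hist1h3i, 87.6% also occur in other genes, with Hist1h3h the closest.

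Among H4 genes, Hist1h4d had 429.5, 576.1 and 358.8 CPM in quiescent DP (log2 p53 AD/- over p53-/- 0.68) and 2470, 3598 and 2326 CPM in cycling cells (0.63). Hist1h4h had 275.2, 345.6 and 166.7 CPM (1.05) and 960.7, 1287 and 584.2 CPM (1.14). Hist1h4a was nearly level, at 17.3, 13.7 and 15.7 CPM in quiescent DP cells and 142.4, 130.5 and 115.3 CPM in cycling cells. Hist1h4k had 3.85, 7.53 and 4.04 CPM in quiescent DP cells, and 71.5% of its 50-base stretches also occur in other genes. Hist2h4, with 13.4, 37.2 and 12.1 CPM in cycling cells, had the highest member ratio of p53 AD/- over p53+/- in that class (1.47), while p53-/- and p53+/- were near each other (-0.14).

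By the 3′ end of the gene model, the median log2 ratio of p53 AD/- over p53-/- in quiescent DP cells was 1.13 for members with a stem-loop and no hexamer after it (19 tested), 0.69 for those with a hexamer (13 tested) and 0.29 for those without a stem-loop match (15 tested). Values overlapped between the 3 sets, which ran from -0.23 to 2.85, from 0.18 to 1.40 and from -0.31 to 1.83.

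For the other lists, counts of genes 2-fold or more apart between p53 AD/- and p53-/- are read against 0.773% higher and 4.97% lower of all genes in quiescent DP cells, and 0.635 and 5.85% in cycling cells; in lists this short a count of 0 is near those shares. Of the replication-independent histones, whose mRNAs are polyadenylated, 10 of 11 were tested in quiescent DP cells and 0 were 2-fold apart between p53 AD/- and p53-/-, with a median of 0.28. H3f3b, an H3.3 gene, had 3385, 4199 and 4155 CPM, H3f3a 2445, 2832 and 2348 CPM, H2afz 420.6, 485.7 and 424.0 CPM and H2afv 417.7, 465.2 and 395.0 CPM. Of the 18 genes for histone transcription and 3′ processing, 17 were tested and 0 were 2-fold apart in quiescent DP or in cycling cells (medians -0.17 and -0.14). Slbp, the stem-loop binding protein, had 40.5, 37.4 and 48.1 CPM in quiescent DP and 338.1, 385.4 and 377.6 CPM in cycling cells. Casp8ap2, a cofactor of histone gene transcription, had 141.0, 99.7 and 148.7 CPM in cycling cells (-0.58), and the processing and cap-binding factors Fip1l1 and Srrt stood at -0.24 and -0.09.

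Of the 19 histone chaperone and assembly genes, 17 were tested in quiescent DP and 19 in cycling cells, and 0 were 2-fold apart (medians -0.09 and -0.21). In cycling cells Anp32e stood at -0.19, Nap1l1 at -0.38, Atrx at -0.54 and Rbbp4 at -0.24. S phase genes had medians of -0.33 in quiescent DP, where 4 of 17 tested were 2-fold or more lower in p53 AD/- (4.97% of all genes), and -0.15 in cycling cells, where 0 of 20 were. Dut had 1014, 1067 and 997.4 CPM in cycling cells, Pcna 530.9, 407.9 and 517.8 CPM and Mcm7 223.8, 250.4 and 395.4 CPM. G2/M genes had medians of -0.92 in quiescent DP (6 of 16 tested were 2-fold or more lower) and 0.05 in cycling cells. Top2a had 1508, 1477 and 1929 CPM there, Mki67 962.8, 640.9 and 1163 CPM, Ube2c 770.0, 1103 and 837.2 CPM and Nusap1 581.1, 777.0 and 786.3 CPM.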

How the data were processed

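Single-cell RNA libraries of thymus from p53+/-, p53 AD/- and p53-/- mice were used, 1 each. The authors deposited a matrix of raw UMI counts per gene and cell for each library; the submitters' processing notes name Cell Ranger 4.0.0. No source used here gives the chemistry, the annotation or the counting strand. The matrices held 8880, 6308 and 9889 barcodes with 46498800, 27638820 and 54164425 UMIs. No genes were tested against replicates, since there are none.

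Cells with at least 500 genes and under 10% mitochondrial UMIs were kept (8150, 6171 and 9543). After log-scaling to 10000 UMIs a cell, 2000 variable genes without the histone members gave 30 principal components, and 15 neighbours gave Leiden clusters at resolution 1 (scanpy 1.11.5, igraph 0.11.9, Python 3.11.15), with no integration. Clusters were named from markers among their 10 leading genes. A cluster with a cycling marker among these got no other name, a condition set after the clusters were seen. Scrublet marked 0, 1 and 0 barcodes, so doublets were not removed. Intervals were exact at 95%: Poisson for CPM, Clopper-Pearson for shares and conditional binomial for ratios. A ratio used members with at least 100 UMIs over the pair and a floor of 3 UMIs per library, and 2-fold or more was the size rule. TMM factors came from edgeR 4.0.16, and thinned shares used 1500 UMIs per cell.

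The members and the gene lists (replication-independent histones, histone transcription and 3′ processing, chaperones and assembly, S phase, G2/M, erythroid, granulocyte) were chosen with earlier results of these data known. Members named are the 12 with the most UMIs and, for each pair of libraries in quiescent DP and cycling cells, the 3 at each end of the ratios; of other lists, the 4 with the most UMIs. Others named are said to be chosen after their values were seen or are given for a count or a shared sequence. Gene models came from GENCODE M21 and promoters from RefSeq GRCm38.p6. The code for ratios, their intervals and the 2-fold rule was checked on simulated Poisson counts with known ratios. Those counts held no spread between cells or libraries, so the check covers counting error only. Alternatives were other cell filters, high doublet scores left out, other resolutions, cycle genes left out of clustering, TMM scaling, cells matched on Malat1, lower minimum counts, the leading member left out and thinning.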

Additional observations from a re-analysis of the deposited data

Results flagged for a closer look

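In 3 members the ratio of p53 AD/- over p53+/- pointed one way in cycling cells and the other way in quiescent DP cells, each with a counting interval that excluded 0. Hist1h2ac, an H2A gene, had a log2 ratio of 0.27 in cycling cells (105.9 and 127.3 CPM in p53+/- and p53 AD/-) and of -0.28 in quiescent DP cells (66.6 and 55.0 CPM). Hist1h2ab, another H2A gene, had 0.66 and -0.27. Hist1h3b, an H3 gene, had 0.71 and -1.66, the latter on 141 and 25 UMIs. With 1 library per genotype the difference between the classes was not tested in any of these members.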

How the results depend on the processing

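Every alternative kept the sign of each family ratio. The 3 values below are in the order of p53 AD/- against p53-/-, then p53 AD/- against p53+/-, then p53-/- against p53+/-. In quiescent DP cells the main log2 values of 1.30, 0.42 and -0.88 became 1.42, 0.44 and -0.98 with TMM factors, 1.18, 0.40 and -0.78 in cells matched on Malat1, and 0.91, 0.34 and -0.57 without Hist1h2ap. In cells under 5% mitochondrial UMIs the second and the third were 0.40 and -0.91, and with cycle genes left out of the clustering the third was -0.91. In cycling cells 1.52, 0.62 and -0.89 became 1.68, 0.72 and -0.97 with TMM factors, 1.71, 0.70 and -1.01 in matched cells, and 0.92, 0.42 and -0.50 without Hist1h2ap. The first and the third were 1.51 and -0.88 under 5% mitochondrial UMIs, 1.49 and -0.87 without the highest Scrublet scores, and 1.53 and -0.90 at resolution 2; at resolution 0.5 the first and the second were 1.5 and 0.60. Members 2-fold or more apart in quiescent DP cells numbered 18, 2 and 14; matching on Malat1 gave 11, 1 and 9 with 36, 39 and 38 members tested, and a minimum of 10 UMIs gave 4 for the second pair. Thinning to 1500 UMIs moved the share of cells with a histone UMI to 99.1, 99.4 and 97.8% in cycling, to 99.4 and 96.9% in p53+/- and p53-/- quiescent DP, and to 74.2, 80.5 and 67.0% in mature SP cells. Of 93 such values, 41 moved beyond their counting interval or by over 1.5 times and 52 did not. No paired analysis was possible because each genotype has 1 library.

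The limits lie in the design. One library per genotype leaves differences between mice, strain labels and library preparation inseparable from genotype, and narrow intervals come from the many UMIs and not from repeated samples. The split of UMIs between near-identical members, and between some members and genes not taken as members, is uncertain. DN cells were few (32 in p53 AD/-), and members under about 100 UMIs in quiescent DP cells, among them Hist1h3b, had too few counts for a ratio between p53 AD/- and p53-/-.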

Other observations

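Hist1h4m, an H4 gene, had 107 UMIs in all filtered cells, and 105 of them came from the p53-/- library, with 1 in p53+/- and 1 in p53 AD/-. Its near-identical copy Hist1h4n had 25.6, 33.9 and 10.2 CPM in cycling cells of p53+/-, p53 AD/- and p53-/-. Summed, the pair had 25.6, 33.9 and 13.4 CPM, a log2 ratio of p53 AD/- over p53-/- of 1.34 and of p53-/- over p53+/- of -0.93. The pair was chosen after its values were seen.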
